A study of Mus musculus with 18 samples.

Results

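Voltage-gated calcium channels are membrane proteins that open on depolarisation and let calcium into the cell. Of 10 genes listed here for their subunits, 8 had probe sets annotated with their symbol alone, and these 8 genes were represented by 9 of the 35382 probe sets on the arrays. Cacna2d1 had 2 such probe sets, and the one with the higher mean over all arrays stands for the gene. Cacna1d was annotated only together with another gene on 1 shared probe set, and Cacnb2 had no probe set under its symbol, so neither is described.

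A high-voltage-activated channel consists of a pore-forming α1 subunit with an intracellular β subunit, an extracellular α2δ subunit and, in skeletal muscle, a γ subunit. Cacna1s encodes the L-type pore of skeletal muscle, which serves as the voltage sensor that triggers calcium release from the sarcoplasmic reticulum. Cacna1c encodes the L-type pore of heart, smooth muscle and neurons. Cacna1g and Cacna1h encode low-voltage-activated T-type pores, which carry pacemaker and burst-firing currents and need no β subunit.

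The arrays covered 3 tissues (skeletal muscle, heart, hippocampus) of C57BL/6 mice, either carriers of TN-XXL or wild type littermates without it, 3 arrays for each genotype in each tissue, 18 in all. TN-XXL is a protein sensor of calcium, built from a troponin C domain that joins a cyan to a yellow fluorescent protein, and the carriers are labelled +/+. The design asks whether carrying the indicator goes with altered transcript levels in any of the 3 tissues. The promoter that drives the transgene, the age and the sex of the mice, the time of day of sampling and any pooling of animals are not given in these sources.

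Values are log2 expression, 1 value per probe set and array. The middle value of an array was 2.44 to 2.49 in skeletal muscle, 2.61 to 2.63 in heart and 3.68 to 3.71 in hippocampus. No detection call was used here, so where a group lies under or near the array median, its difference to another group is one between deposited values and not a calibrated ratio of transcript. Array pairs within a group correlated at 0.982 to 0.993 across probe sets. The tissue labels fitted their markers. All 8 markers of skeletal muscle and all 7 measured markers of heart stood above the array median in their own tissue. So did all 7 measured markers of hippocampal neurons. The labels do not say whether same-numbered arrays shared an animal. The p-values therefore measure spread among these samples only, which may be technical. In whole tissue, fewer cells of a type and less RNA per cell cannot be told apart. Differences carry the SE of the fit, with n = 3 arrays per group, and a difference was called at an adjusted p under 0.05 in limma.

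The 8 genes fell into distinct tissue patterns, which the plot of all arrays shows. Between wild type tissues, 8 of 8 genes were called for heart minus skeletal muscle and 8 of 8 for hippocampus minus skeletal muscle, and 7 of 8 for hippocampus minus heart. Such calls were common, since 38.7%, 78.2% and 76.8% of all probe sets were called in these 3 comparisons. The median difference over all probe sets was 0.07 for heart minus skeletal muscle, 0.67 for hippocampus minus skeletal muscle and 0.61 for hippocampus minus heart, so differences that involve hippocampus carry a shift of the whole array.

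**Figure D1:**
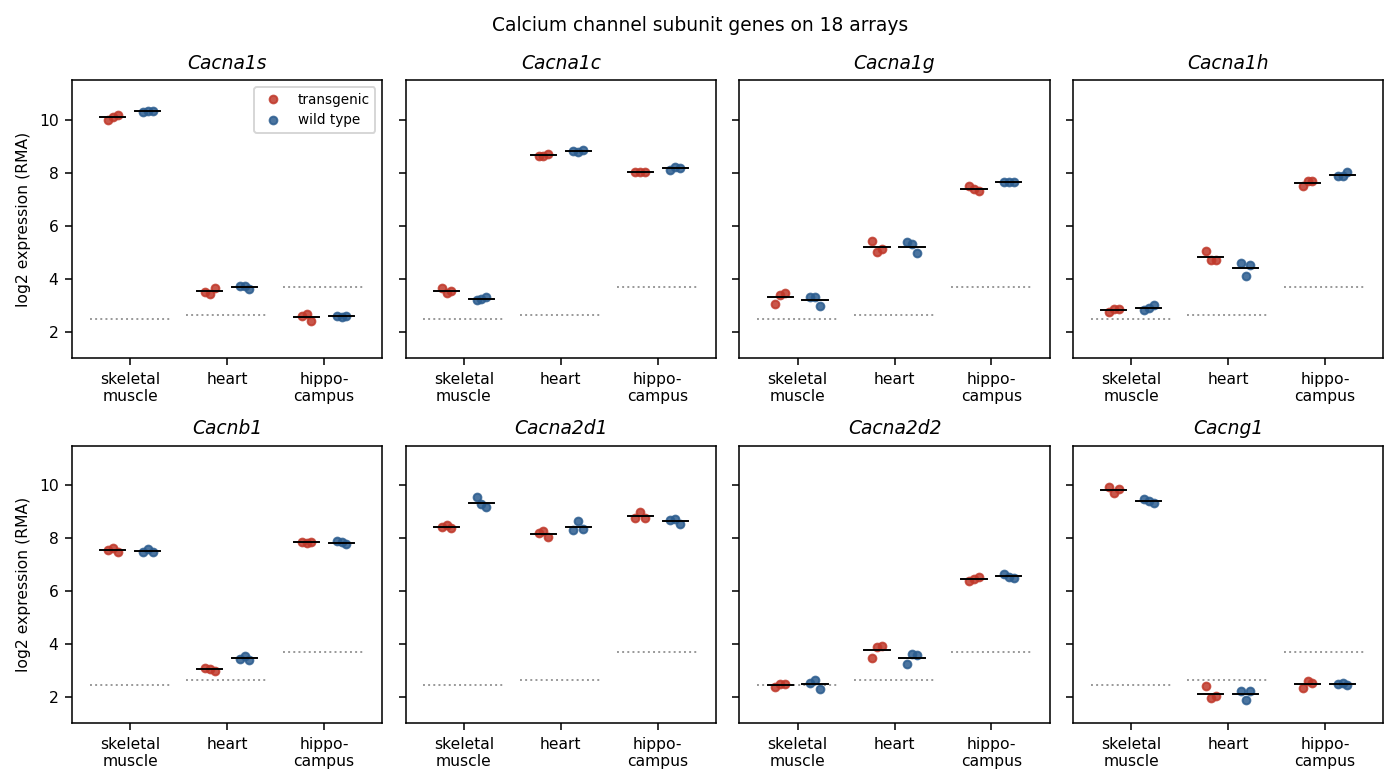
Log2 expression of the 8 measured calcium channel subunit genes on each of the 18 arrays, by tissue, with transgenic arrays (red) left of wild type arrays (blue). Black bars are group means of 3 arrays and dotted grey lines the median of all probe sets of the tissue. Cacna1s and Cacng1 stand high in skeletal muscle alone, Cacna1c is low in skeletal muscle, Cacnb1 is low in heart, and Cacna2d1 is high in all 3 tissues, with its transgenic muscle arrays below the wild type ones.

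Cacna1s had 10.01, 10.10 and 10.18 in transgenic skeletal muscle and 10.31, 10.33 and 10.34 in wild type skeletal muscle. In heart it had 3.49, 3.41 and 3.65 on transgenic arrays and 3.72, 3.72 and 3.59 on wild type arrays. In hippocampus it lay between 2.39 and 2.64 in both genotypes, under the median of every array. Wild type heart was lower than wild type skeletal muscle by a log2 difference of −6.65 ± 0.08 (adjusted p = 4.04e-17), and hippocampus by −7.75 ± 0.08 (1.14e-18). The order of the group means was wild type muscle, transgenic muscle, wild type heart, transgenic heart, wild type hippocampus and transgenic hippocampus, and only the 2 heart groups and the 2 hippocampus groups overlapped with their neighbour.

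Cacng1, which encodes the γ1 subunit of the skeletal muscle channel, shared this restriction. Its arrays lay at 9.92, 9.72 and 9.88 in transgenic and 9.48, 9.42 and 9.34 in wild type skeletal muscle. In heart and hippocampus it stayed between 1.89 and 2.60, under the array median on all 12 arrays, so the differences to these tissues are between deposited values only. Wild type heart minus skeletal muscle was −7.30 ± 0.12 (adjusted p = 6.33e-16) and wild type hippocampus minus skeletal muscle −6.92 ± 0.12 (8.14e-17). The small difference of Cacng1 between wild type hippocampus and wild type heart (0.38 ± 0.12, adjusted p = 0.0102) turned to −0.71 with arrays centred on their medians and to −0.26 with quantile normalization, and its call ended without wild type heart array 2 (0.0616).

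Cacna1c showed the opposite pattern. It had 3.66, 3.46 and 3.52 on transgenic and 3.21, 3.22 and 3.30 on wild type skeletal muscle arrays. Heart had the highest values, 8.63, 8.63 and 8.72 on transgenic and 8.84, 8.79 and 8.88 on wild type arrays. Hippocampus followed with 8.04, 8.03 and 8.03 on transgenic and 8.12, 8.22 and 8.18 on wild type arrays. The wild type difference was 5.59 ± 0.07 for heart minus skeletal muscle (adjusted p = 2.98e-17) and −0.66 ± 0.07 for hippocampus minus heart (3.11e-07). No 2 groups next to each other in the order of their means overlapped.

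Both T-type genes were highest in hippocampus, intermediate in heart and lowest in skeletal muscle. Cacna1g had 7.51, 7.38 and 7.33 in transgenic hippocampus and 7.67, 7.66 and 7.65 in wild type hippocampus. Its heart arrays spanned 5.02 to 5.42 in transgenic and 4.97 to 5.37 in wild type mice, and its skeletal muscle arrays 3.06 to 3.44 in transgenic and 2.98 to 3.32 in wild type mice. Within heart and within skeletal muscle, the genotypes of Cacna1g overlapped. The wild type difference between hippocampus and heart was 2.45 ± 0.14 (adjusted p = 2.01e-10).

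Cacna1h had 7.49, 7.70 and 7.68 in transgenic hippocampus and 7.86, 7.87 and 8.02 in wild type hippocampus. In heart it had 5.05, 4.70 and 4.70 on transgenic and 4.61, 4.10 and 4.51 on wild type arrays, and every transgenic array lay above every wild type one. In skeletal muscle it lay between 2.73 and 3.00, with overlapping genotypes. Hippocampus minus heart was 3.51 ± 0.13 in wild type mice (adjusted p = 6.59e-13).

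Cacnb1 encodes the β1 subunit, which binds the pore inside the cell and brings it to the surface membrane in skeletal muscle. Its arrays read 7.54, 7.64 and 7.48 in transgenic and 7.46, 7.60 and 7.47 in wild type skeletal muscle. Hippocampus had 7.85, 7.83 and 7.85 in transgenic and 7.88, 7.86 and 7.77 in wild type mice. Heart was far lower, at 3.08, 3.06 and 2.99 on transgenic and 3.45, 3.55 and 3.40 on wild type arrays. Wild type heart minus skeletal muscle was −4.05 ± 0.07 (adjusted p = 1.05e-15). Hippocampus minus skeletal muscle for Cacnb1 was 0.32 ± 0.07 (6.75e-04) as deposited, −0.94 with arrays centred and −0.60 with quantile normalization, so the order of these 2 tissues depends on the scaling.

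The α2δ subunits differed between themselves. Cacna2d1 encodes α2δ-1, an extracellular protein that raises the number of channels at the surface and is bound by gabapentin. It was the one gene of the 8 that stood far above the array median in all 3 tissues, at 8.42, 8.51 and 8.39 in transgenic and 9.55, 9.30 and 9.18 in wild type skeletal muscle. Heart had 8.20, 8.29 and 8.04 on transgenic and 8.32, 8.65 and 8.34 on wild type arrays. Hippocampus had 8.75, 9.01 and 8.75 on transgenic and 8.70, 8.74 and 8.52 on wild type arrays. In wild type mice skeletal muscle was the highest tissue, and hippocampus minus skeletal muscle was −0.69 ± 0.12 (adjusted p = 9.18e-05). Its transgenic muscle arrays lay among the wild type heart arrays, and these 2 groups overlapped. Wild type hippocampus minus heart for Cacna2d1 was 0.22 ± 0.12 and not called (adjusted p = 0.111), became −0.87 with arrays centred (8.95e-06) and −0.49 with quantile normalization (0.00132), and passed without wild type heart array 2 (0.32, adjusted p = 0.0278).

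Cacna2d2 encodes α2δ-2, known from its role in cerebellar Purkinje cells. It had 6.39, 6.44 and 6.54 in transgenic and 6.63, 6.55 and 6.49 in wild type hippocampus. Its heart values were 3.48, 3.89 and 3.91 on transgenic and 3.23, 3.63 and 3.59 on wild type arrays, and its skeletal muscle values, 2.28 to 2.64, lay around the array median. The genotypes overlapped in each of the 3 tissues. Wild type hippocampus minus heart was 3.07 ± 0.13 (adjusted p = 5.68e-12).

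Promoter sequence was at hand for 5 of the 8 genes in RefSeq windows of assembly GRCm38.p6, each 300 bases from 250 before to 50 after an annotated start, in 8 windows. They are shown for the muscle-restricted Cacna1s, for Cacna2d1, which was high in every tissue, and for both starts of Cacnb1, which was low in heart. Capitals mark E-boxes (CANNTG, which reads the same on both strands), the motif that myogenic factors such as MyoD bind. The windows are chr1:136052561-136052860 on the plus strand for Cacna1s, chr5:15934441-15934740 on the plus strand for Cacna2d1, and chr11:98022578-98022877 and chr11:98018323-98018622 on the minus strand for Cacnb1.
Cacna1s: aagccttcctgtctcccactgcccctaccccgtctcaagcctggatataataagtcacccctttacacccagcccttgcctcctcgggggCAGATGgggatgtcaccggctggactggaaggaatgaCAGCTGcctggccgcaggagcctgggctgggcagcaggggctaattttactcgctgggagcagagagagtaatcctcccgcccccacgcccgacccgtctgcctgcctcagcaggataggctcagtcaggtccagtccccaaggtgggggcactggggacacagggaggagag
Cacna2d1: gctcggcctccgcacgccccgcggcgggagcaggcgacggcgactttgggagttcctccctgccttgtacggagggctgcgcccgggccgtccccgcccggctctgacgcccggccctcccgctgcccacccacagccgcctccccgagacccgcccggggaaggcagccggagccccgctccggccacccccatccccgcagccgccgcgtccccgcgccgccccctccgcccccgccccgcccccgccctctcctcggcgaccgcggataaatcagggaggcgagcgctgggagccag
Cacnb1, first start: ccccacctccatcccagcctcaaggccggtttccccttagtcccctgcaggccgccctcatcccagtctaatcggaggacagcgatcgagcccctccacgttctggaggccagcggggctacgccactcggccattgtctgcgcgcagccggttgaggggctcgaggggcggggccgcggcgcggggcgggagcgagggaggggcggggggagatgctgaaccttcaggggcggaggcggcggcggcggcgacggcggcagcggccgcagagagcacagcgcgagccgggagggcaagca
Cacnb1, second start: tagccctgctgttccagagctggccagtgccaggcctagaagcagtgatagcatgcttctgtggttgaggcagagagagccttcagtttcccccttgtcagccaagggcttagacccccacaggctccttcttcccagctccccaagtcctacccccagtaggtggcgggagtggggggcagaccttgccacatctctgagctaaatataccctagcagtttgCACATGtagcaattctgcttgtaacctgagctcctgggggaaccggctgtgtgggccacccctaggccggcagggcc

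The Cacna1s window held 2 E-boxes, beginning 160 and 123 bases before the start, and 9 CpG dinucleotides at 63% G and C. The Cacna2d1 window held no E-box and 42 CpG at 80% G and C. The first Cacnb1 window likewise had no E-box and 34 CpG at 73.7%, while the second had 1 E-box 27 bases before the start and 3 CpG at 59.3%. An E-box was present in 72.3% of 32841 promoter windows of this length, so 1 match is the usual case. Among genes low in skeletal muscle, the 3 windows of Cacna1c held 3, 2 and 1 E-boxes and the window of Cacna2d2 held 0. Cacng1, also restricted to muscle, had no window, and which start of a gene is used in muscle is not known here. Whether E-box number goes with the level in muscle was not tested. None of the 8 windows of measured members held CACGTG, an E-box form bound by clock factors and present in 7.15% of all windows, or TTATGTAA, the D-box of clock-controlled genes (0.938%). Neither of the muscle motifs MEF2 and CArG, searched on both strands and found in 3.19% and 1.63% of windows, was matched in these 8 windows. These are letter matches only.

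In skeletal muscle, the transgenic arrays had less Cacna2d1 and more Cacng1 and Cacna1c than the wild type arrays. Of the 8 genes 2 were called higher, 1 lower and 5 neither, against 8.15% of all probe sets called (3.86% higher and 4.3% lower). The median difference of the 8 genes was 0.00, beside 0.02 over all probe sets.

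Cacna2d1 was 1.87-fold lower in transgenic muscle. It averaged 8.44 ± 0.06 in transgenic and 9.34 ± 0.19 in wild type muscle (SD, n = 3 each), a difference of −0.90 ± 0.12 (limma, adjusted p = 1.73e-04), and every transgenic array lay below every wild type array. The second probe set of Cacna2d1, whose values did not enter the first, read 7.82, 7.84 and 7.83 in transgenic and 8.81, 8.67 and 8.50 in wild type muscle. Its difference was −0.83 ± 0.08, a 1.77-fold lower level (adjusted p = 1.40e-05). Fitted on the 6 muscle arrays alone, the first probe set of Cacna2d1 stayed called (adjusted p = 0.0192), and without any 1 of the 18 arrays the adjusted p was 1.26e-04 to 0.00128.

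Cacng1 rose in transgenic muscle, averaging 9.84 ± 0.11 on transgenic and 9.41 ± 0.07 on wild type arrays (SD, n = 3 each). The difference was 0.43 ± 0.12, or 1.34-fold (adjusted p = 0.0409), and the arrays did not overlap. Its call was close to the threshold. It ended in a fit of the muscle arrays alone (0.0876), with arrays centred (0.0531), with quantile normalization (0.0833), and without any of 10 single arrays: transgenic muscle 1 or 3, wild type muscle 1, 2 or 3, transgenic hippocampus 2 or 3, and wild type hippocampus 1, 2 or 3 (adjusted p up to 0.128 for Cacng1).

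Cacna1c rose by 0.30 ± 0.07 (1.23-fold, adjusted p = 0.0109) from its low level in this tissue. Its mean was 3.55 ± 0.10 in transgenic and 3.25 ± 0.05 in wild type muscle (SD, n = 3 each), close to 1 log2 unit above the array median. The arrays did not overlap, and the gene stayed called without any 1 of the 18 arrays, but not when the muscle arrays were fitted alone (adjusted p = 0.187). The SE of a gene in the shared fit reflects its spread in all 3 tissues.

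Cacna1s, the pore gene of the muscle channel, had all 3 transgenic arrays below the wild type ones, with a difference of −0.23 ± 0.08 that missed the threshold (adjusted p = 0.122). It passed with quantile normalization (−0.28, adjusted p = 0.039 for Cacna1s). Cacnb1 differed by 0.04 ± 0.07 (95% interval −0.11 to 0.19), Cacna1g by 0.08 ± 0.14, Cacna1h by −0.09 ± 0.13 and Cacna2d2 by −0.04 ± 0.13, with adjusted p from 0.782 to 0.931 and overlapping arrays. The interval for Cacnb1 leaves room for a change of at most 0.19 on the log2 scale.

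**Figure D2:**
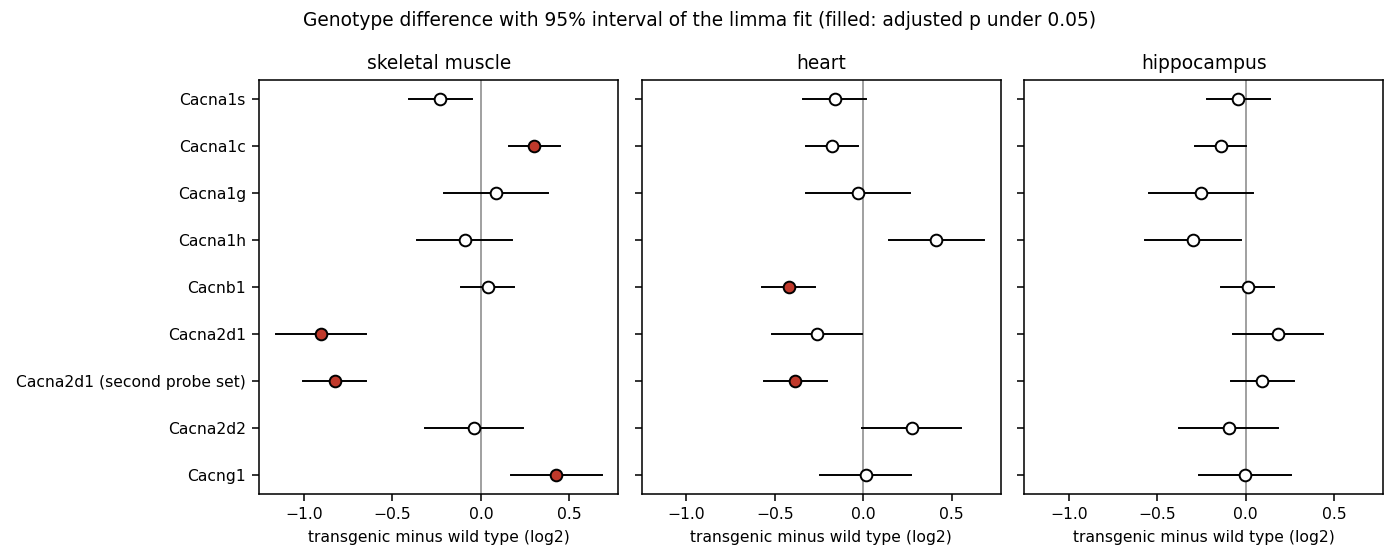
Transgenic minus wild type log2 difference of each probe set in skeletal muscle, heart and hippocampus, with its 95% interval from the limma fit. Filled points were called at an adjusted p under 0.05. Both Cacna2d1 probe sets lie near −0.9 to −0.8 in muscle, Cacnb1 lies at −0.42 in heart, and in hippocampus no point is filled.

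Some genes of the marker lists differed with genotype in muscle, where 8.15% of all probe sets were called. Which cells of the whole tissue carried this RNA is not known, so such a difference need not come from other cells. Of 7 endothelial markers 4 were called lower in transgenic muscle, and all 7 differences were negative, with a median of −0.56. Their summed level was 8.90 to 9.36 on transgenic and 9.51 to 9.64 on wild type arrays (log2), and none was under the array median. Of 4 measured adipocyte markers 1 was called higher, Adipoq by 0.83 ± 0.21 with overlapping arrays. All 4 differences were positive, with a median of 0.59. The summed level of the 4 was 8.54 to 8.71 on transgenic and 8.02 to 8.57 on wild type arrays, with none under the array median. Of 7 atrial markers 2 were called higher, Sln and Kcnj3. The sums were 7.56 to 8.01 on transgenic and 7.10 to 7.13 on wild type arrays. Of these 7, 4 were under the array median in transgenic and 5 in wild type muscle. Of 7 measured heart markers 1 was called higher, Actc1. The sums were 11.42 to 11.59 on transgenic and 11.03 to 11.12 on wild type arrays. In both genotypes 5 of these 7 were under the array median. Of 6 smooth muscle markers, cells that also use Cacna1c, 0 were called in limma. Of these 6, 4 were lower and 2 higher in transgenic muscle, with a median difference of −0.10. Their summed level was 11.80 to 11.86 on transgenic and 11.72 to 11.74 on wild type arrays. That sum follows the most abundant markers and need not stand for smooth muscle cells. Of 5 measured denervation markers 1 was called higher, Runx1 by 1.61 ± 0.13. The summed level of the 5 was 7.14 to 7.55 on transgenic and 6.74 to 7.12 on wild type arrays. The clock gene Arntl differed as well, by −2.74 ± 0.17 in muscle and −2.57 ± 0.17 in heart. The part of any of these in the channel gene differences was not tested.

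In heart, Cacnb1 was the one gene called, and it was lower, while Cacna2d1 was called lower on its second probe set only. Of the 8 genes 0 were called higher, 1 lower and 7 neither, against 3.19% of all probe sets called (1.57% higher and 1.62% lower). The median difference of the 8 was −0.10, beside 0.00 over all probe sets.

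Cacnb1 averaged 3.05 ± 0.05 in transgenic and 3.47 ± 0.08 in wild type heart (SD, n = 3 each). The difference was −0.42 ± 0.07, a 1.34-fold lower level (limma, adjusted p = 0.00369), and the arrays did not overlap. These values lie within 1 log2 unit of the array median of the tissue. The call held without any 1 of the 18 arrays (adjusted p 0.00401 to 0.0231) and ended when the 6 heart arrays were fitted alone (Cacnb1, adjusted p = 0.142).

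Cacna2d1 gave different calls on its 2 probe sets in heart. The first differed by −0.26 ± 0.12 (adjusted p = 0.319) and the second, at 7.29, 7.34 and 7.36 on transgenic and 7.87, 7.65 and 7.62 on wild type arrays, by −0.38 ± 0.08 (0.0209). On both, every transgenic array lay below every wild type array. The call on the second ended when the heart arrays were fitted alone (0.212) and without transgenic heart array 1, 2 or 3 (0.061, 0.0559 and 0.0545) or wild type heart array 1 (0.0897). The mean of both probe sets of Cacna2d1 passed (−0.32, adjusted p = 0.0348).

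The pore genes were not called in heart. Cacna1c had all transgenic arrays lower (−0.18 ± 0.07, adjusted p = 0.212) and Cacna1h all transgenic arrays higher (0.41 ± 0.13, adjusted p = 0.102). The Cacna1h difference passed, with an adjusted p of 0.0494, when each gene entered the fit once as the mean of its probe sets. Cacna1s differed by −0.16 ± 0.08, Cacna1g by −0.03 ± 0.14, Cacna2d2 by 0.27 ± 0.13 and Cacng1 by 0.01 ± 0.12, with adjusted p from 0.345 to 0.983. Across all probe sets, the arrays of the genotypes did not overlap for 21.9% in muscle, 18.5% in heart and 13.3% in hippocampus.

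Some genes of the marker lists also differed in heart, where 3.19% of all probe sets were called. Which cells carried this RNA is again not known. Of 7 atrial markers 2 were called higher, Nppa and Kcnj3. The summed level of the list was 11.15 to 11.88 on transgenic and 10.10 to 10.73 on wild type arrays. In both genotypes 2 of the 7 were under the array median. Of 7 endothelial markers 2 were called lower, and for all 7 every transgenic array lay below every wild type array. Their sums were 10.06 to 10.35 on transgenic and 10.59 to 10.66 on wild type arrays. Of 8 skeletal muscle markers 1 was called lower, Acta1 by −1.18 ± 0.23. The sums were 10.76 to 10.89 on transgenic and 11.04 to 11.29 on wild type arrays. In both genotypes 5 of the 8 were under the array median. Of 6 slow fibre markers 1 was called lower, and all 6 differences were negative. The sums were 11.98 to 12.14 on transgenic and 12.19 to 12.27 on wild type arrays. Of 5 measured denervation markers 1 was called higher, Ncam1. The sums were 5.99 to 6.04 on transgenic and 5.56 to 5.71 on wild type arrays. The part of any of these markers in the differences of Cacnb1 and Cacna2d1 was not tested.

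In hippocampus, none of the 8 genes was called, and neither was any of the 35382 probe sets (limma, 0% called). At an unadjusted p under 0.05, 1784 probe sets passed there, 5.04% of all, and 1 of them was a member, Cacna1h (−0.30 ± 0.13, unadjusted p = 0.0323, adjusted p = 0.962). Both T-type genes and Cacna1c had all 3 transgenic arrays below the wild type ones, with −0.26 ± 0.14 for Cacna1g and −0.14 ± 0.07 for Cacna1c. Cacna2d1 had all transgenic arrays above the wild type ones on both probe sets (0.18 ± 0.12 and 0.09 ± 0.08). Such separation was found for 13.3% of all probe sets in hippocampus. The 95% interval for Cacna2d1 in hippocampus ran from −0.07 to 0.44, so it holds no decrease of the size seen in muscle. Cacnb1 differed by 0.01, Cacna1s by −0.04, Cacna2d2 by −0.10 and Cacng1 by 0.00, with overlapping arrays. Of 5 thalamus markers, a neighbouring region, 0 were called, with summed levels of 7.75 to 7.87 on transgenic and 7.71 to 7.89 on wild type arrays.

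Whether a genotype difference depended on the tissue was tested with the interaction of genotype and tissue, which was called for 3 of the 8 genes against 3.89% of all probe sets. The genes were Cacna2d1 (adjusted p = 0.00493, and 0.00113 on the second probe set), Cacna1c (0.0134) and Cacnb1 (0.0204). Cacna1h had 0.074, Cacng1 0.278, Cacna2d2 0.483, Cacna1g 0.61 and Cacna1s 0.667.

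**Figure D3:**
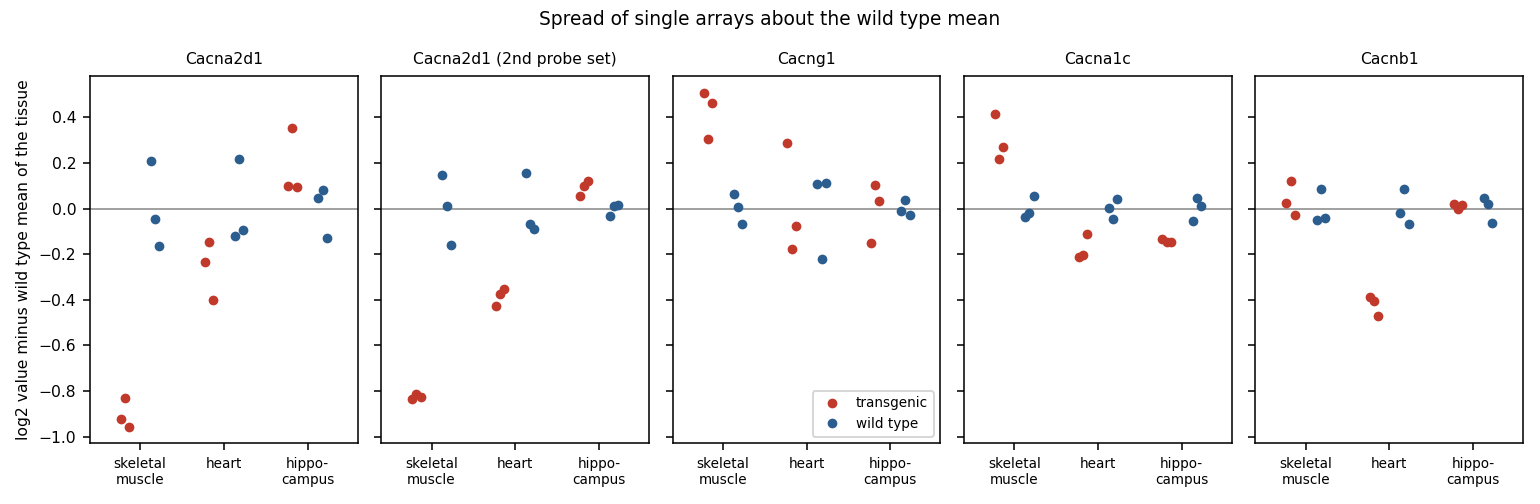
Log2 value of each array minus the wild type mean of its tissue for both Cacna2d1 probe sets, Cacng1, Cacna1c and Cacnb1, with transgenic arrays (red) left of wild type arrays (blue). Cacna2d1 lies below the line in transgenic muscle and heart and above it in transgenic hippocampus, Cacna1c lies above it in muscle and below it in both other tissues, and Cacnb1 departs from it in heart.

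For Cacna2d1, the difference in hippocampus exceeded that in muscle by 1.09 ± 0.17 (adjusted p = 0.00196, called for 3.4% of probe sets) and by 0.92 ± 0.12 on the second probe set (4.22e-04). Heart minus muscle was 0.64 ± 0.17 and hippocampus minus heart 0.44 ± 0.17, and neither was called (adjusted p = 0.0626 and 0.364). For Cacna1c, heart minus muscle was −0.48 ± 0.10 (adjusted p = 0.0144, called for 2.55% of probe sets) and hippocampus minus muscle −0.44 ± 0.10 (adjusted p = 0.0184). For Cacnb1, heart minus muscle was −0.46 ± 0.10 (adjusted p = 0.0214), while hippocampus minus heart, 0.43 ± 0.10, was not called (0.0748, called for 0.582% of probe sets). The interaction of Cacnb1 ended without transgenic heart array 3 (0.059) or wild type heart array 2 (0.0582). Cacng1 was called in muscle alone, but its difference there was not distinguished from that in heart (−0.41 ± 0.17, adjusted p = 0.27) or hippocampus (−0.43 ± 0.17, adjusted p = 0.244). The Cacna1h differences in hippocampus and heart were −0.71 ± 0.18 apart and not called (0.108).

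Other subunits of the family were mostly genes of hippocampus. Of 16 listed, 14 were measured, and 14 were higher in wild type hippocampus than in wild type heart, or 12 with arrays centred or quantile normalized, where Cacna1f and Cacna2d4 were not. All 14 were called as deposited, in a comparison where 76.8% of all probe sets were called and 87.7% of those calls were higher. Cacna1a, which encodes the P/Q-type pore of nerve terminals, had 9.05, 9.07 and 9.02 in transgenic and 9.03, 9.13 and 9.05 in wild type hippocampus, against 3.31 to 3.81 in transgenic and 3.17 to 3.53 in wild type muscle. In the genotype comparison, 1 of the 14 was higher and 2 lower in muscle (8.15% of all probe sets called), 1 was higher and 0 lower in heart (3.19%), and 0 were called in hippocampus. The median difference of the 14 genes was 0.02 in muscle, 0.02 in heart and −0.03 in hippocampus.

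Cacnb4, a β subunit of brain, had 3.01, 3.00 and 3.30 in transgenic and 2.16, 2.01 and 1.90 in wild type muscle. The difference was 1.07 ± 0.13 (adjusted p = 6.15e-05), with all wild type arrays under the array median and all transgenic ones above it, and it depended on tissue (interaction adjusted p = 0.00536). Cacna2d4, an α2δ subunit known from the retina, fell by 1.26 ± 0.26 in muscle (adjusted p = 0.00569), at 3.20, 2.76 and 3.29 on transgenic and 4.73, 4.79 and 3.53 on wild type arrays, of which the third lay near the transgenic ones. Cacng7, a γ subunit that associates with AMPA receptors in brain, fell by 0.49 ± 0.11 (0.0125), a call that ended without transgenic muscle array 2 (Cacng7, 0.0567) or wild type muscle array 3 (0.0532). Cacng2, the stargazin gene, had a difference of 0.44 ± 0.14 in muscle that did not pass (0.0665). When the muscle arrays were fitted alone, Cacnb4 stayed called (adjusted p = 0.0139) and Cacna2d4 (0.148) and Cacng7 (0.0831) did not.

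In heart, the third α2δ gene Cacna2d3 had 3.11, 2.74 and 2.88 on transgenic and 2.34, 2.02 and 2.04 on wild type arrays, a rise of 0.78 ± 0.10 (adjusted p = 4.85e-04, and 0.109 from the heart arrays alone). Its interaction with tissue was called (0.00311). The transgenic values lie above the array median and the wild type values under it. Cacng4 (−0.41 ± 0.16), Cacna1a (0.31 ± 0.13) and Cacng7 (−0.24 ± 0.11) were next by p-value in heart and did not pass. In hippocampus Cacna1i, the third T-type pore gene, had the smallest p of the list, with −0.31 ± 0.12 and all transgenic arrays lower (adjusted p = 0.917).

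Among genes whose products regulate the channels, Rrad rose in transgenic muscle and fell in transgenic heart. Of 16 listed, 12 were measured: 2 were higher and 0 lower in muscle (8.15% of all probe sets called), 0 were higher and 3 lower in heart (3.19%), and 0 were called in hippocampus. Median differences were −0.02, −0.12 and −0.05 in the 3 tissues.

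Rrad encodes a small GTPase that binds β subunits and restrains L-type current. It had 4.27, 3.48 and 3.55 in transgenic and 2.49, 3.11 and 2.49 in wild type muscle, and 7.74, 7.05 and 6.79 in transgenic and 8.24, 8.24 and 8.41 in wild type heart. It rose by 1.07 ± 0.25 in muscle (adjusted p = 0.0138) and fell by 1.11 ± 0.25 in heart (0.0261), without overlap in either tissue. In wild type muscle 2 of its 3 arrays lay close to the array median. The heart difference minus the muscle difference of Rrad was −2.17 ± 0.35 (adjusted p = 0.00348). Each call on Rrad ended when the tissue was fitted alone (0.111 in muscle and 0.148 in heart). The muscle call also ended without transgenic muscle array 1 (Rrad, 0.0635) or wild type muscle array 1 (0.0607) or 3 (0.0603), and the heart call without transgenic heart array 2 (0.0888) or 3 (0.113) or wild type heart array 1 (0.066), 2 (0.0626) or 3 (0.0822).

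Ahnak, a large scaffold protein gene whose product binds β subunits, rose by 0.65 ± 0.09 in muscle (adjusted p = 2.66e-04), with means of 7.11 ± 0.16 on transgenic and 6.47 ± 0.04 on wild type arrays (SD, n = 3 each), and also passed when muscle was fitted alone (Ahnak, 0.0391). Prkar1a, a regulatory subunit of protein kinase A, fell by 0.50 ± 0.07 in heart (8.95e-04), at 8.67, 8.75 and 8.73 on transgenic and 9.20, 9.19 and 9.28 on wild type arrays. Akap7, which anchors that kinase near the channel, fell by 0.41 ± 0.10 in heart (0.0431). When heart was fitted alone, neither Prkar1a (0.0982) nor Akap7 (0.188) passed, and the Akap7 call ended without any 1 of 12 of the 18 arrays, among them every heart array, with adjusted p up to 0.152. Stac, an adaptor that binds L-type channels, had the smallest p of the list in hippocampus, with 0.40 ± 0.09 and all transgenic arrays higher (adjusted p = 0.467). Stac3, the adaptor of the muscle channel, had 7.63, 7.86 and 7.74 in transgenic and 8.16, 8.09 and 7.70 in wild type muscle, with overlap.

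Partners of the channels at the junction of surface membrane and sarcoplasmic reticulum included 1 called gene in muscle and 1 in heart. All 14 listed were measured, and 1 was higher and 0 lower in muscle (8.15% of all probe sets called), 0 were higher and 1 lower in heart (3.19%), and 0 were called in hippocampus. Cav3, the muscle caveolin gene, had 5.65, 5.37 and 5.64 in transgenic and 5.22, 5.14 and 5.02 in wild type muscle (0.43 ± 0.09, adjusted p = 0.00975, and 0.139 from the muscle arrays alone). Ryr2, the calcium release channel of heart, had 10.01, 10.05 and 10.03 on transgenic and 10.45, 10.39 and 10.38 on wild type heart arrays (−0.38 ± 0.07, adjusted p = 0.00971, and 0.146 from the heart arrays alone). Ryr1, the release channel that Cacna1s opens in skeletal muscle, had 10.89, 10.92 and 10.96 in transgenic and 11.10, 11.03 and 10.97 in wild type muscle. Every transgenic array of Ryr1 lay below every wild type array there, and the gene was not called. The plot of related genes sets these differences side by side.

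**Figure D4:**
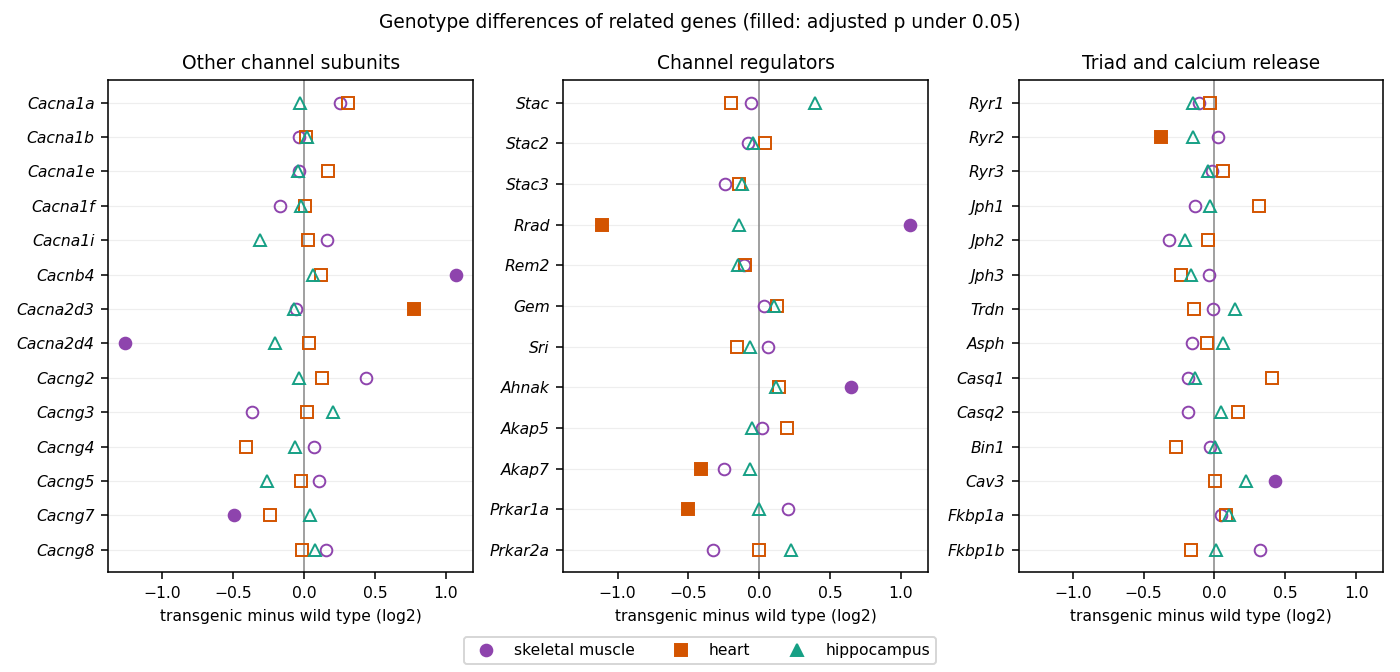
Transgenic minus wild type log2 difference of the other measured channel subunits, channel regulators and junctional calcium release genes in skeletal muscle (circles), heart (squares) and hippocampus (triangles). Filled symbols were called at an adjusted p under 0.05: Rrad is filled on the right in muscle and on the left in heart, and no triangle is filled.

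The genes closest to each member over the 18 arrays were named by Pearson correlation. The points fall into 3 tissue clusters, so these values describe the tissue pattern and carry no test. Cacna1s was closest to Neb (0.9992), Dapk2 (0.998) and Tpm2 (0.9978), and Cacng1 to Myh4, Myoz1 (0.9985 each) and Mylpf (0.9984), of which Neb, Tpm2, Myh4, Myoz1 and Mylpf are genes of the muscle sarcomere. Cacna1c was closest to Cdh2 (0.9983), the N-cadherin gene, to Ryr2 (0.9979) and to Pygb (0.9965), the brain glycogen phosphorylase gene. Cacna1g had Dapk1 (0.9965) and Cacna1h had Fads1 (0.9961) in first place, Cacnb1 had Neurl1a (0.9967) and Cacna2d2 had Pdzd8 (0.9973). Cacna2d1 had no such close neighbour: its first was Suox at 0.9368, followed by Zhx2 at 0.9218 and Epm2a at 0.9184. With the group means taken out, the closest genes of the 4 called members reached 0.8903 for Cacna2d1 (Sp110), 0.8997 for Cacng1 (6330549D23Rik), 0.8679 for Cacna1c (Sfmbt1) and 0.8747 for Cacnb1 (Adcy4). Each is the highest value over all other measured genes, and these values carry no test either.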

How the data were processed

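RNA from 3 tissues of transgenic and wild type mice was hybridised to 18 Affymetrix arrays. The deposited values are log2 expression, made by the authors with RMA; per the submitters' processing notes they used R 2.10.0. Whether all tissues were normalized together is not given in the sources used here. The table held 35382 probe sets, of which 21153 had 1 gene symbol in the platform annotation (18781 genes), 1867 several and 12362 none. Genes were named only from the first kind, and a gene with several probe sets was taken from the one with the highest mean. The number of arrays limits the precision.

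All probe sets entered 1 limma model (limma 3.58.1, R 4.3.3) of 6 group means, with 12 residual degrees of freedom and 2.67 from the prior. Tests were two-sided, with Benjamini-Hochberg adjustment over all probe sets of a comparison. The interaction was a moderated F test. The members and the 3 lists of related genes were chosen with earlier results of these data known. All members were named, and of each list up to 4 genes per genotype comparison by p-value, plus 3 like genes per member; Cacna1a, Stac3 and Ryr1 were added for their roles after their values were seen. Summed marker levels are log2 of summed linear values.

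Alternatives were the arrays in the fit, centring, quantile normalization, an intensity trend with robust prior, the replicate number as a fixed or random block, filters on dim or unnamed probe sets, averaging a gene's probe sets, and leaving out each array. The procedure was tested on simulated data. Promoter windows came from RefSeq (GRCm38.p6). Figures used matplotlib 3.10.9.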

Additional observations from a re-analysis of the deposited data

Results flagged for a closer look

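The genotype difference of 3 channel subunit genes itself differed between tissues in the test of the interaction of genotype and tissue (limma, moderated F test, Benjamini-Hochberg adjustment over all probe sets). Cacna2d1, the α2δ-1 gene, had an adjusted p of 0.00493, with transgenic minus wild type differences of −0.90 in skeletal muscle, −0.26 in heart and 0.18 in hippocampus. Cacna1c, the L-type pore gene of heart and brain, had an adjusted p of 0.0134, with 0.30 in skeletal muscle, −0.18 in heart and −0.14 in hippocampus. Cacnb1, the β1 gene, had an adjusted p of 0.0204, with 0.04 in skeletal muscle, −0.42 in heart and 0.01 in hippocampus. The Cacna1c value in skeletal muscle and the Cacnb1 value in heart are from tissues where the gene lies near the array median.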

How the results depend on the processing

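With only the arrays compared in the fit, calls fell to 838 probe sets and 1 member in muscle (3 members as reported) and to 36 probe sets and 0 members in heart. With a gene's probe sets averaged, 3 members were called in heart. Leaving out 1 array gave 2262 to 2860 probe sets and 2 to 3 members in muscle, 593 to 1117 probe sets and 1 member each time in heart, and 929 to 1316 probe sets and 2 to 4 members for the interaction. The heart count was 669 without wild type heart array 1, 746 without array 2, and 701 and 593 without transgenic heart arrays 2 and 3. In hippocampus 0 probe sets passed in every limma fit. For wild type hippocampus minus skeletal muscle, 15467 probe sets were called without the dimmer ones, 18401 with single symbols only and 16460 as gene means, and for hippocampus minus heart 15073 without the dimmer ones, 17223 with quantile normalization and 16412 as gene means, where fewer were tested except with quantile normalization. The share of higher calls in those 2 comparisons was 89.6% and 87.7% as deposited, 26.4% and 26% centred and 43.3% and 44.2% after quantile normalization; for heart minus skeletal muscle it was 66.1%, 44% and 50.7%.

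Same-numbered arrays did not deviate together (correlations −0.031 to 0.040 between genotypes and −0.054 to 0.047 between tissues, 0 over 0.1). With the number as a replicate block, 525 probe sets were called in heart, 570 and 1 member (Cacna2d1) for the interaction, and calls on Cacna1c in muscle (0.0656) and its interaction (0.106), the Cacnb1 interaction (0.0911), Rrad in muscle (0.0559) and heart (0.0921), Ryr2 in heart (0.0596) and the second Cacna2d1 probe set in heart (0.0959) ended.

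Directions turned for Cacnb1, hippocampus minus skeletal muscle (−0.94 centred, −0.60 quantile), Cacna2d1, hippocampus minus heart (−0.87, −0.49), and Cacng1, hippocampus minus heart (−0.71, −0.26), and for the Cacng1 genotype difference in hippocampus, near 0 (0.0046, 0.0074). With 1 array left out, differences near 0 also turned: in muscle Cacna1g (−0.030 to 0.20), Cacnb1 (−0.0023 to 0.084) and Cacna2d2 (−0.14 to 0.040), in heart Cacna1g (−0.15 to 0.052) and Cacng1 (−0.13 to 0.11), in hippocampus Cacna1s (−0.098 to 0.030), Cacnb1 (−0.022 to 0.033) and Cacng1 (−0.057 to 0.069). The Cacna1h interaction passed without dimmer probe sets (0.0342), with single symbols only (0.0325), as gene means (0.0296) and without wild type heart array 1 (0.0447). The causes were not tested. Of 742 values under alternatives that left out no single array, 691 were rated the same. These 691 include values with no call to lose, among them 78 genotype differences in hippocampus. The share therefore does not measure how firm the calls are. The 742 include counts of probe sets and members called, which were rated the same when of similar size. A gene value was rated the same when it kept its side of the threshold and, outside the interaction, its direction.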
